A study of Mus musculus with 8 samples.

Results

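Interleukin 1 (IL1) and interleukin 6 (IL6) are cytokines through which stromal cells exchange alarm signals with epithelium and leukocytes. The 10 genes described here were chosen by symbol and comprise the receptor chains Il1r1, Il1rap and Il1rl1, the alarmin Il33, the protease gene Casp1, the IL6 family ligands Il6, Lif and Il11, the shared receptor chain Il6st, and the macrophage growth factor Csf1. They are 10 of 45321 genes to which the sequenced transcripts of mouse colon fibroblast cultures were summed. Fib-Ctrl cultures were Zeb1 flox/flox, with intact loxP-flanked alleles, and Fib-dZeb1 cultures were Zeb1 del/del after Cre recombinase had been switched on in culture. Both groups were labelled untreated and came from colon of Mus musculus, and no age is given in the labels. Each genotype had 2 lines with 2 replicate libraries per line, so 4 Fib-Ctrl libraries were compared with 4 Fib-dZeb1 libraries. The labels number the lines without saying how they were derived, and neither the Cre source used in these cultures nor what the Fib-Ctrl cultures received in its place is stated for these libraries, so the deletion and its induction cannot be told apart. The question was whether loss of Zeb1, a transcription factor of the mesenchymal state, goes with a change of these inflammatory genes in unstimulated fibroblasts.

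An IL1 signal needs a ligand-binding chain (IL1R1 for IL1, ST2 encoded by Il1rl1 for IL33) and the accessory chain IL1RAP, and is passed on through MyD88 and IRAK kinases to NF-kB. Caspase-1 is the inflammasome protease that matures IL1 beta and IL18. All IL6 family ligands signal through gp130, the product of Il6st, to JAK kinases and STAT3, and in fibroblasts both routes are known for switching on an inflammatory programme.

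Libraries held 18803096 to 25465488 reads in genes. Zeb1 was at 92.1 to 98.5 CPM (gene reads relative to the TMM-scaled library size) in Fib-Ctrl and at 11.4 to 18.3 CPM in Fib-dZeb1, in accord with the labels. Fib-dZeb1 line 1 had Xist reads (5256 and 2704) and no Ddx3y reads. Both Fib-Ctrl lines and Fib-dZeb1 line 2 had Ddx3y reads and no Xist reads. Sex was thus not balanced between the genotypes, and its part in the genotype comparison was not tested. The fibroblast markers Col1a1, Col1a2 and Vim were abundant in all 8 libraries. The summed level of 10 fibroblast markers was 53130 to 73550 CPM in Fib-Ctrl against 18210 to 33980 CPM in Fib-dZeb1, with Col1a1 3.13-fold and Col1a2 3.38-fold lower in Fib-dZeb1 (adjusted p = 0.00761 and 0.00633 by edgeR). The part of this difference in the results was not tested. The leukocyte markers Adgre1 and Tyrobp had no read in any library, and Ptprc, Itgam and Fcer1g stayed under 1 CPM. The summed level of all 10 leukocyte markers was 9.4 to 21 CPM in Fib-Ctrl against 8.29 to 10.6 CPM in Fib-dZeb1, most of it from Cd14, Lyz2 and Csf1r. The summed level of 8 epithelial markers was 2.33 to 5.2 CPM in Fib-Ctrl against 20 to 130.6 CPM in Fib-dZeb1, led there by Krt18 and Krt19. Of these 8, Krt18 and Epcam were called higher (adjusted p = 0.0115 and 0.000902 by edgeR), and Krt19 was not (0.106). Of 6 mesothelial markers, Msln was called higher (adjusted p = 0.00552) and 5 stayed under 1 CPM in every library. Krt18, Epcam and Msln passed the expression filter through Fib-dZeb1. The part of other cells was not tested. Bulk RNA cannot separate fewer cells that use a gene from less RNA per cell.

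Of the 10 genes, 9 passed the expression filter and 1, Casp1, was called between genotypes (lower in Fib-dZeb1). Over all 12963 genes tested, 16.2% were called, 7.54% as higher and 8.65% as lower in Fib-dZeb1. The median size of the log2 difference was 0.25 over the 9 genes tested and 0.3 over all genes. The pattern that most of the members did show lay between the 2 lines of Fib-Ctrl, which differed in 7 of the 10, against 16.7% of 13812 genes tested for that difference. Of these 7, Il6 and Il11 passed the filter of that comparison only through lines in which they were high.

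**Figure D1:**
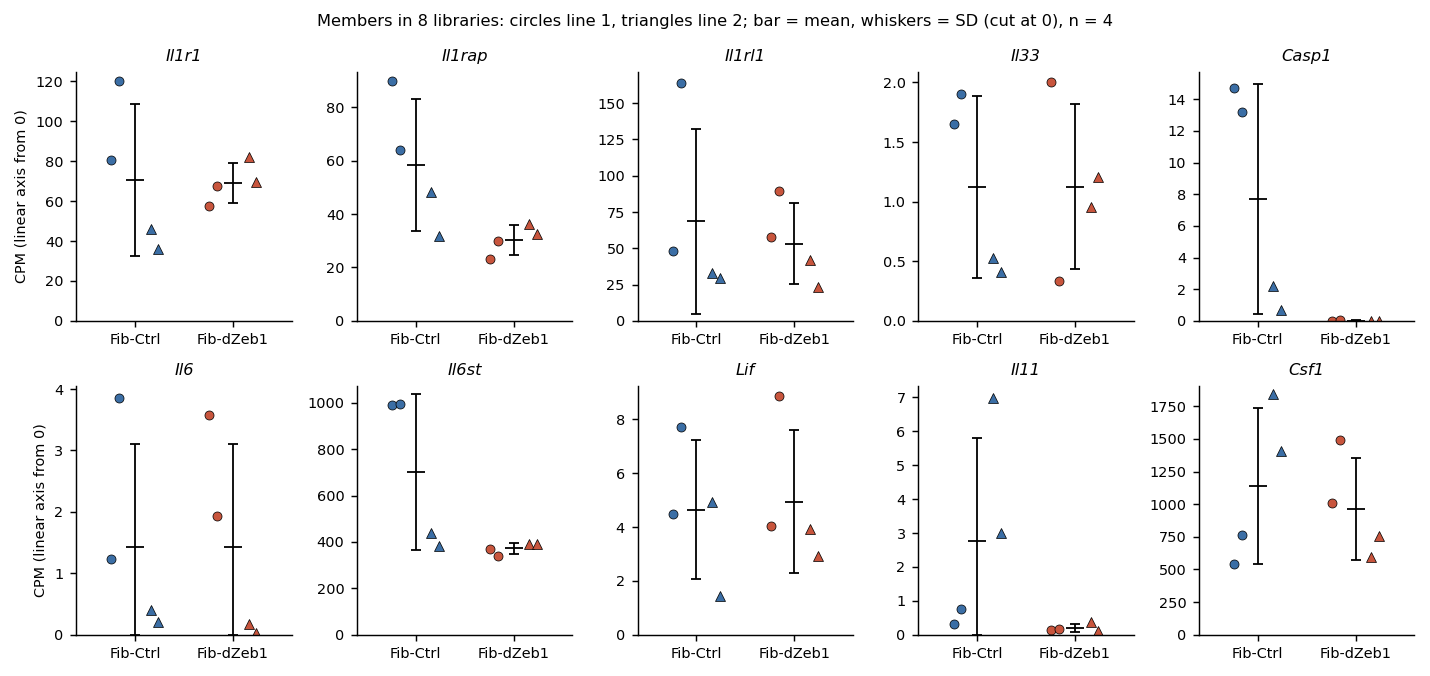
CPM of the 10 genes in each library on linear axes, Fib-Ctrl in blue and Fib-dZeb1 in red, circles for line 1 and triangles for line 2, with the mean and SD of 4 libraries. Casp1 lies at 0.671 to 14.7 CPM in Fib-Ctrl and near 0 in Fib-dZeb1, whereas the ranges of the other 9 genes overlap between genotypes.

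Per transcript length (TPM, mean of 8 libraries), Csf1 was the most abundant at 544 TPM, followed by Il6st at 135 TPM. Csf1 ranged from 274 to 888 TPM and did not overlap with Il6st, which ranged from 88.4 to 243 TPM. The 3 IL1 family receptor chains followed at 37.9 TPM for Il1rl1, 25.5 TPM for Il1r1 and 18.3 TPM for Il1rap. Their ranges overlapped widely, and that of Il1rl1 (14.5 to 102 TPM) also reached into that of Il6st. Casp1 (4.98 TPM), Lif (3.02 TPM), Il6 (3.01 TPM), Il11 (2.39 TPM) and Il33 (0.834 TPM) were low, with ranges that overlapped one another. By genotype, Casp1 was at 9.95 TPM in Fib-Ctrl and 0.0144 TPM in Fib-dZeb1, where it was the lowest of the 10, and Il11 was at 4.32 TPM in Fib-Ctrl and 0.459 TPM in Fib-dZeb1, below Il33 there (0.885 TPM). Summed by gene, the receptor genes were thus far more abundant than the ligand genes, with Csf1 as the exception. For Il1rl1 most of the TPM came from Il1rl1-203 (11.1 to 80.8 TPM), the secreted form described below.

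Casp1 (ENSMUSG00000025888.5, chromosome 9, positions 5298517 to 5307265 of GRCm38, plus strand) stood at 14.7 and 13.2 CPM in the 2 replicates of Fib-Ctrl line 1 and at 2.21 and 0.671 CPM in those of line 2. In Fib-dZeb1 it had 0 CPM in both replicates of line 2 and in replicate 1 of line 1, and 0.0419 CPM in replicate 2 of line 1. In reads, these were 321, 257, 38 and 13 in Fib-Ctrl, and 1 read over all 4 Fib-dZeb1 libraries. Every Fib-dZeb1 library was thus below every Fib-Ctrl library (ranges did not overlap for 24.3% of all genes tested), and within Fib-Ctrl line 1 was 9.68-fold above line 2. Pooled over libraries, the rate in Fib-Ctrl was 760 times that in Fib-dZeb1, with an exact 95% interval of 136 to 30100 that covers counting error only. Casp1 was called lower (log2FC, the fitted log2 fold change of Fib-dZeb1 over Fib-Ctrl, -8.87, SE 1.41, adjusted p = 0.00654 by edgeR), where the size of the fitted value depends on the prior count. It passed the expression filter through Fib-Ctrl alone, so a gene of this kind had to differ. Its call held with each of the 8 libraries left out (adjusted p 0.00424 to 0.0413), and was lost with the 4 lines as units (adjusted p = 0.196), with a correlation within lines in limma-voom (0.134), and without Fib-dZeb1 line 1 (0.0616) or line 2 (0.0677). With the 4 lines as units, the deleted gene Zeb1 was not called either (adjusted p = 0.0622).

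Lyz2, a myeloid lysozyme gene on the leukocyte marker list, ran in the same order as Casp1 within Fib-Ctrl, with replicates of line 1 at 13.2 and 6.28 CPM and those of line 2 at 3.44 and 0.826 CPM, and was at 0.502 to 1.53 CPM in Fib-dZeb1. The leukocyte markers Cd14, Csf1r and Cd68 did not run in this order. Cd14 was at 4.31, 5.25, 3.2 and 5.58 CPM in Fib-Ctrl and overlapped with Fib-dZeb1 (4.33 to 6.91 CPM). Csf1r was at 2.93, 4.01, 3.2 and 2.27 CPM in Fib-Ctrl, above its 1.1 to 2.09 CPM in Fib-dZeb1, and Cd68 was at 0.229 to 0.617 CPM in Fib-Ctrl against 0.771 to 1.34 CPM in Fib-dZeb1. The remaining 6 of the 10 markers stayed under 1 CPM in every library, the defining Adgre1 and Tyrobp at 0 among them. The part of other cells in the Casp1 level was not tested. The protein-coding genes whose log2 CPM followed Casp1 most closely over the 8 libraries were Sned1 (Pearson r = 0.986), which encodes an extracellular matrix protein, and Sh2d4a (r = 0.985), among 12050 compared. Sned1 was at 28.5, 34.8, 4.72 and 3.2 CPM in Fib-Ctrl, compared with 0.147 to 0.621 CPM in Fib-dZeb1. Sh2d4a was at 3.8, 4.53, 1.11 and 0.62 CPM in Fib-Ctrl, compared with 0.137 to 0.43 CPM in Fib-dZeb1. Both were, like Casp1, higher in both replicates of Fib-Ctrl line 1 than in those of line 2.

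Both protein-coding neighbours of Casp1 within 100 kb are caspase genes, and neither passed the test. Casp4, the protease of the non-canonical inflammasome (positions 5308828 to 5336783), was at 4.49, 7.92, 1.11 and 0.568 CPM in Fib-Ctrl, compared with 3.39, 3.98, 1 and 1.91 CPM in Fib-dZeb1 (log2FC -0.46 with SE 0.78 and adjusted p = 0.722 by edgeR). Casp12 (positions 5345430 to 5373032) was at 46.6, 47, 15.4 and 16.4 CPM in Fib-Ctrl, compared with 28.3, 13.2, 9.8 and 10.7 CPM in Fib-dZeb1 (log2FC -1.02 with SE 0.49 and adjusted p = 0.183). Line 1 of Fib-Ctrl was the higher one for all 3 caspases of this cluster.

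Because Casp1 was the only member called, its promoter is shown, as the 250 bases before the transcription start that RefSeq gives for GRCm38.p6 (chr9:5298267-5298516, plus strand). Capitals would mark letters of the motifs searched, and none was found in this window.
Casp1: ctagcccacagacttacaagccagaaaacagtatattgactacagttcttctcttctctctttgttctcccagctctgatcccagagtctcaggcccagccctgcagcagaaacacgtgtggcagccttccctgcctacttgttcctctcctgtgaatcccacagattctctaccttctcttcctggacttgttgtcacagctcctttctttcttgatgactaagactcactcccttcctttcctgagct
The motifs were the ZEB1-type E-box CACCTG or CAGGTG (in 17.2% of 32851 promoter windows of this length), AP-1 TGANTCA (6.75%), C/EBP TTGCNNAA (9.56%) and the kappaB consensus (7.25%), each on both strands. A match is a run of letters and not a shown binding site.

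Of the 21 listed genes of inflammasomes and inflammatory caspases, 13 were tested, 2 were lower (Casp1 and Naip2) and 11 did not pass, with a median log2FC of -0.46 against -0.005 over all genes. Over all genes tested, 16.2% were called, 8.65% as lower. Naip2, which encodes a sensor of bacterial proteins, was at 5.45, 7.36, 4.37 and 2.27 CPM in Fib-Ctrl, compared with 1.19, 0.544, 1.78 and 1.4 CPM in Fib-dZeb1 (log2FC -1.98 with SE 0.46 and adjusted p = 0.0231 by edgeR). Its ranges did not overlap between genotypes either, as for 24.3% of all genes tested. Leaving out either replicate of Fib-Ctrl line 1 (adjusted p = 0.0526 and 0.0558) or replicate 2 of Fib-dZeb1 line 2 (0.0606) ended the Naip2 call, as did the correlation within lines (0.165), and reads of the near-identical Naip genes may be split wrongly. The sensors Nlrp3, Nlrc4 and Aim2 stayed under the filter, and the adaptor Pycard was at 0.254 ± 0.18 CPM in Fib-Ctrl against 0.55 ± 0.351 CPM in Fib-dZeb1 (SD, n = 4, adjusted p = 0.274). Gsdmd, whose product forms the pore of pyroptosis, was at 28 ± 10.7 and 31.5 ± 2.39 CPM (log2FC 0.17 with SE 0.25 and adjusted p = 0.685). Of the substrates of caspase-1, Il1b had no read in any library and Il18 was at 2.18 ± 1.26 CPM in Fib-Ctrl against 1.34 ± 0.243 CPM in Fib-dZeb1 (adjusted p = 0.313).

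The IL1 receptor chains were not called between genotypes. Il1r1, the signalling receptor of IL1 alpha and beta (ENSMUSG00000026072.12, chromosome 1, positions 40225080 to 40317257, plus strand), was at 80.4 and 120.4 CPM in Fib-Ctrl line 1 but 46.1 and 35.9 CPM in its line 2. The Fib-dZeb1 values were 57.4 and 67.7 CPM for line 1 but 81.9 and 69.5 CPM for line 2. The Fib-dZeb1 libraries all lay between the 2 Fib-Ctrl lines except 1, which was just above the lower replicate of Fib-Ctrl line 1. The genotype difference was -0.03 on the log2 scale (SE 0.34, 95% interval -0.81 to 0.75, adjusted p = 0.96 by edgeR), which leaves room for changes of that size either way. Without Fib-Ctrl line 1 the gene was called higher in Fib-dZeb1 (log2FC 0.75, adjusted p = 0.0369). Between the lines of Fib-Ctrl it differed 2.45-fold (log2FC -1.30 with SE 0.22 and adjusted p = 0.0096), and between those of Fib-dZeb1 it did not pass (0.27, SE 0.22, adjusted p = 0.483).

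Il1rap, the accessory chain shared by receptors of IL1 and IL33 (ENSMUSG00000022514.14, chromosome 16, positions 26581704 to 26730117, plus strand), was at 89.9 and 64.1 CPM in Fib-Ctrl line 1 but 48.2 and 31.8 CPM in its line 2. In Fib-dZeb1 it was at 23, 29.8, 36.1 and 32.4 CPM. Only Fib-Ctrl line 2 replicate 2 lay within the Fib-dZeb1 range, and the other 3 Fib-Ctrl libraries were above it. The log2FC was -0.95 (SE 0.30, 95% interval -1.62 to -0.28) and missed the threshold (adjusted p = 0.0604 by edgeR). It was called without Fib-Ctrl line 2 replicate 2 (adjusted p = 0.0223), without the whole of Fib-Ctrl line 2 (0.0108) and by DESeq2 (0.0135). The lines of Fib-Ctrl differed 1.93-fold (log2FC -0.95 with SE 0.24 and adjusted p = 0.0377).

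Il1rl1 (ENSMUSG00000026069.15, chromosome 1, positions 40429570 to 40465415, plus strand) encodes the IL33 receptor ST2, in a membrane form and a shorter secreted form that acts as a decoy. It was at 47.8 and 163.6 CPM in Fib-Ctrl line 1, at 32.9 and 29.7 CPM in line 2, for line 1 of Fib-dZeb1 at 57.9 and 89.5 CPM, and at 42 and 23.6 CPM in line 2. Line 1 was above line 2 in both genotypes, and Fib-Ctrl line 1 replicate 2 stood apart from all other libraries. No comparison of it passed, with a log2FC of -0.36 between genotypes (SE 0.60, adjusted p = 0.715 by edgeR), -1.76 between the Fib-Ctrl lines (SE 0.55, adjusted p = 0.0652) and -1.17 between the Fib-dZeb1 lines (SE 0.54, adjusted p = 0.224). Without Fib-Ctrl line 1 replicate 2 the genotype value turned to 0.53 (adjusted p = 0.434), and between the Fib-Ctrl lines the gene was called without Fib-Ctrl line 1 replicate 1, where the remaining replicate is that high library. With every library kept, it was also called between those lines by DESeq2 and with no filter on low counts, and with no filter between the Fib-dZeb1 lines too.

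By transcript, the secreted form of ST2 made up most of Il1rl1. Il1rl1-203, with 1011 coding bases against 1701 in the membrane form, was at 24.4, 80.8, 13.7 and 11.1 TPM in Fib-Ctrl and at 31, 44.9, 22.6 and 11.8 TPM in Fib-dZeb1. Il1rl1-202, the main membrane form, was at 3.87, 11.8, 3.78 and 3.76 TPM in Fib-Ctrl and at 0, 8.81, 4.28 and 2.61 TPM in Fib-dZeb1, where the library listed at 0 had 6.26 TPM for Il1rl1-201, which has the same coding length. Il1rl1-203 alone took 62.4% to 84.1% of the gene's TPM. The short coding forms also include Il1rl1-204, with 195 coding bases and 0 to 9.55 TPM, so their share is not that of the secreted form alone. Short coding forms together took 87.1%, 88.4%, 78.3% and 78.8% of the gene's TPM in Fib-Ctrl and 83.2%, 84.6%, 84.1% and 81.9% in Fib-dZeb1. The difference of the means was 0.291 percentage points (exact permutation p = 0.886, two-sided over 70 arrangements, adjusted p = 0.943 over 3 shares tested), where the smallest p possible was 0.0286. So the total varied over several-fold between libraries while Il1rl1-203 remained the main form in all 8.

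**Figure D2:**
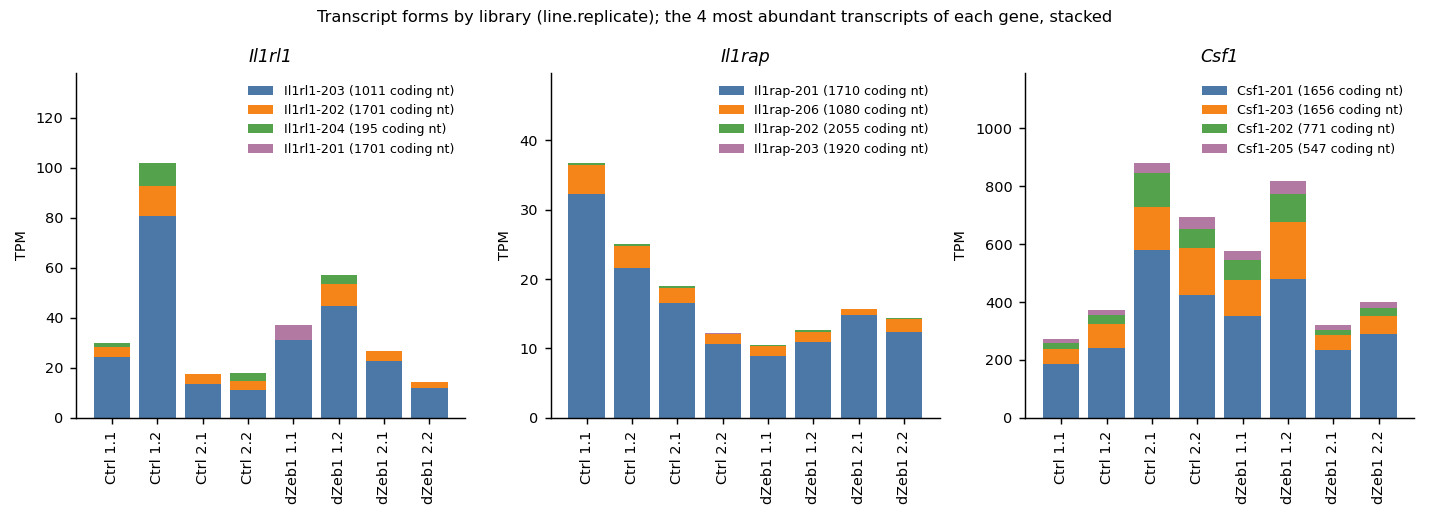
Stacked TPM of the 4 most abundant transcripts of Il1rl1, Il1rap and Csf1 in each library (line.replicate), with coding lengths in the key. The 1011-base form of Il1rl1 fills most of each bar, from 11.1 to 80.8 TPM, whereas the long form Il1rap-201 fills most of each Il1rap bar.

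Il1rl1-202 and Il1rl1-203 both start near the second of 2 RefSeq starts of the gene, and the annotated transcript at the first start (position 40429570) was listed at 0 TPM in all 8 libraries. The 250 bases before that second start are shown because both transcripts with the most TPM start close to it (chr1:40439379-40439628, plus strand, GRCm38.p6), and they hold none of the motifs searched.
Il1rl1 second start: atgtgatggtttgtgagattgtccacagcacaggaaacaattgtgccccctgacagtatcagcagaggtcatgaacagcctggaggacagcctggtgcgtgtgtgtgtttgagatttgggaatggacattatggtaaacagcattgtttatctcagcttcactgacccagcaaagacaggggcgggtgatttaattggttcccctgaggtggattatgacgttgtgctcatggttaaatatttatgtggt
For Il1rap the balance was the reverse. The short secreted form Il1rap-206 (1080 coding bases) took 11.2%, 12.6%, 11.3% and 11% of TPM in Fib-Ctrl and 14.6%, 11.3%, 5.33% and 12.9% in Fib-dZeb1 (difference of means -0.507 percentage points, exact permutation p = 0.943). The membrane form Il1rap-201 was at 20.3 ± 9.14 TPM in Fib-Ctrl and 11.7 ± 2.52 TPM in Fib-dZeb1 (SD, n = 4). Il1r1 was read almost entirely from Il1r1-202, which took 93.5% to 97.4% of its TPM, and has no annotated short coding form here.

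Il33, the nuclear alarmin that binds ST2 (ENSMUSG00000024810.16, chromosome 19, positions 29925114 to 29960718, plus strand), was low, with 8 to 42 reads per library. It was at 1.65, 1.9, 0.524 and 0.413 CPM in Fib-Ctrl, compared with 2.01, 0.335, 0.957 and 1.21 CPM in Fib-dZeb1. Replicates of Fib-dZeb1 line 1 differed as widely as any pair of libraries. The log2FC was -0.003 (SE 0.64, 95% interval -1.46 to 1.45, adjusted p = 0.998 by edgeR), so at this depth the interval still holds changes of over 2-fold in either direction.

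Around these receptors, 5 of 10 listed IL1 family receptors and 2 of 11 listed IL1 family ligands and secreted inhibitors were tested, and none passed. Il18rap, the accessory chain for IL18 beside Il1rl1 on chromosome 1, was at 6.14, 13.2, 7.98 and 9.34 CPM in Fib-Ctrl, compared with 20.4, 26.9, 12.1 and 14.8 CPM in Fib-dZeb1 (log2FC 1.02 with SE 0.31 and adjusted p = 0.0547 by edgeR), while its partner Il18r1 was at or under 0.294 CPM. Il1a was at 0.0386 ± 0.0772 CPM in Fib-Ctrl against 0.161 ± 0.237 CPM in Fib-dZeb1 (SD, n = 4), and the IL36 genes had no reads, so the receptors of IL1 were present with hardly any transcript of IL1 itself.

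Of 14 genes of IL1 receptor signalling, all tested, 1 was higher (Tab3), 3 were lower (Irak3, Tollip and Irak4) and 10 did not pass, with a median log2FC of 0.08. Over all genes tested, 7.54% were called higher and 8.65% lower. Irak3 encodes IRAK-M, which dampens the pathway, and was at 5.18, 5.76, 2.97 and 4.29 CPM in Fib-Ctrl, compared with 1.67, 0.628, 1.78 and 0.294 CPM in Fib-dZeb1 (log2FC -2.06 with SE 0.54 and adjusted p = 0.0363 by edgeR). Tollip, also known as an inhibitor of IRAK1, went from 98.3 ± 12 to 74.6 ± 3.61 CPM (SD, n = 4; log2FC -0.40 with SE 0.11 and adjusted p = 0.0396). The kinase gene Irak4 went from 18.1 ± 1.48 to 13.5 ± 1.15 CPM (log2FC -0.43 with SE 0.12 and adjusted p = 0.0474). Tab3, an adaptor of the kinase TAK1, went from 15.7 ± 0.861 to 23 ± 2.63 CPM (log2FC 0.55 with SE 0.12 and adjusted p = 0.0179). The groups did not overlap for any of these 4 genes, as for 24.3% of all genes tested. The 4 were named for passing the test on the same values, so this adds no support. All 4 calls were fragile: Irak4 lost its call without any 1 of the 8 libraries (adjusted p 0.0589 to 0.127), Tollip without any but Fib-Ctrl line 1 replicate 2 (up to 0.105), Irak3 without any but replicate 1 of either Fib-dZeb1 line (up to 0.0879), and Tab3 without Fib-Ctrl line 2 replicate 1 (0.0508). With the correlation within lines none of the 4 was called (adjusted p 0.14 to 0.252), and Irak4 was not called under the replicate block either (0.0524). Irak3, like Casp1, passed the expression filter through Fib-Ctrl. Myd88 was at 22.9 ± 4.44 and 26.2 ± 4.53 CPM (adjusted p = 0.49) and Traf6 at 18 ± 1.7 and 23.4 ± 1.69 CPM (adjusted p = 0.056).

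The IL6 family ligands among the 10 genes were scarce, and Il6 and Il11 differed between lines. Il6 (ENSMUSG00000025746.11, chromosome 5, positions 30013114 to 30019981, plus strand), the founding inflammatory cytokine of the family, was at 1.24 and 3.86 CPM in Fib-Ctrl line 1 but 0.408 and 0.206 CPM in its line 2. The Fib-dZeb1 values were 3.58 and 1.93 CPM for line 1 but 0.182 and 0.0367 CPM for line 2, the last of which is 1 read. In each genotype both replicates of line 1 were above both of line 2. The line difference was 8.3-fold in Fib-Ctrl (log2FC -3.04 with SE 0.81 and adjusted p = 0.0418 by edgeR) and 25.1-fold in Fib-dZeb1 (-4.65, SE 0.90, adjusted p = 0.0274). Il6 passed the filter of the line comparison through the line 1 libraries, where it was high, which favoured a difference between lines. The genotype difference was -0.007 (SE 1.202, 95% interval -2.74 to 2.73, adjusted p = 0.997). The lines carry the same numbers in both genotypes, yet Fib-dZeb1 line 1 had Xist reads (5256 and 2704) and no Ddx3y reads while the other 3 lines had Ddx3y reads (896 to 2414) and no Xist reads. In Fib-dZeb1 the difference between lines and that in sex cannot be told apart, and the call for Il6 there was lost without Fib-dZeb1 line 1 replicate 1 or either replicate of its line 2.

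The Il6 promoter (chr5:30012864-30013113, plus strand, GRCm38.p6) is shown because Il6 differed between lines in both genotypes. Capitals mark, from left to right, an AP-1 match at the far end of the window, a C/EBP match from 128 bases and a kappaB match from 44 bases before the start.
Il6: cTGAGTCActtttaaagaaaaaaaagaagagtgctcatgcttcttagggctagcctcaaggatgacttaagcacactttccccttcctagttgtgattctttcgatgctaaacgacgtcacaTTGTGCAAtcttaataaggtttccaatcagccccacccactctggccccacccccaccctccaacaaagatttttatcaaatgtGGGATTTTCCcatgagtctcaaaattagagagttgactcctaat
The Il11 promoter, of the other gene with a line difference among these ligands, held an AP-1 match 98 bases before the start used in Fib-Ctrl (chr7:4778142-4778391, minus strand).
Il11: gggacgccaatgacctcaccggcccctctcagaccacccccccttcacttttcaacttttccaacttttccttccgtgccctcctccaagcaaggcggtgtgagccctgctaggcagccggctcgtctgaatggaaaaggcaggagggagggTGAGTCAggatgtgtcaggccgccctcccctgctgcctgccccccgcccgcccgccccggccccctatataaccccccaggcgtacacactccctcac
The Lif promoter, shown for its E-box, held an AP-1 match at 228 bases, a kappaB match at 178 bases and the sole ZEB1-type E-box among the 14 windows of the 10 genes, at 12 bases (chr11:4257318-4257567, plus strand). Of the Lif transcripts only Lif-202, with 11.4% to 100% of the gene's TPM, starts here, at position 4257557 inside the window. Lif-201 and Lif-203 start downstream, at 4267095 and 4266796.
Lif: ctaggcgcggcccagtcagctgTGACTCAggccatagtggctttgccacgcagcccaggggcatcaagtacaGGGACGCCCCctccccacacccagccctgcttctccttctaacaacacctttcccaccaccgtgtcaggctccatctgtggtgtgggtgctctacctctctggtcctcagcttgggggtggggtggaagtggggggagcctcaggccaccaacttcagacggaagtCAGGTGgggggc
Among those 14 windows the E-box stood in 1, AP-1 in 3, and C/EBP and kappaB in 4 each.

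Il11 (ENSMUSG00000004371.15, chromosome 7, positions 4772373 to 4782859, minus strand), a cytokine of fibrosis in the same family, had 7 and 15 reads in Fib-Ctrl line 1, 120 and 58 reads in line 2, and 3, 4, 8 and 3 reads in Fib-dZeb1. As CPM this was 0.321, 0.772, 6.99 and 2.99 against 0.143, 0.168, 0.365 and 0.11. Fib-Ctrl line 2 was high and Fib-Ctrl line 1 was near the Fib-dZeb1 values, so the genotypes overlapped by 1 library. Il11 failed the expression filter of the genotype comparison. Without the filter it was called lower (log2FC -3.77 with SE 0.92 and adjusted p = 0.0333 by edgeR), as it was by DESeq2 (adjusted p = 0.00032). In the comparison of lines, where it was tested, line 2 of Fib-Ctrl was 9.14-fold above line 1 (log2FC 3.18 with SE 0.70 and adjusted p = 0.0226), and the Fib-dZeb1 lines did not pass (0.54, SE 0.91, adjusted p = 0.765). Il11 passed the filter of that comparison through Fib-Ctrl line 2, where it was high, so a gene of this kind had to differ there. The few Fib-dZeb1 reads were assigned to Il11-202, which starts upstream at position 4782857, in 3 of 4 libraries, whereas all Fib-Ctrl reads went to Il11-201, which starts at 4778141. With so few reads this split is a description only.

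Lif, leukemia inhibitory factor (ENSMUSG00000034394.14, chromosome 11, positions 4257557 to 4272514, plus strand), was at 4.49, 7.72, 4.95 and 1.45 CPM in Fib-Ctrl, compared with 4.06, 8.88, 3.92 and 2.94 CPM in Fib-dZeb1. Replicate 2 of line 1 was the highest library in both genotypes. No difference passed, with 0.09 on the log2 scale between genotypes (SE 0.51, 95% interval -1.08 to 1.25, adjusted p = 0.923 by edgeR), -0.94 between the Fib-Ctrl lines (adjusted p = 0.333) and -0.92 between the Fib-dZeb1 lines (adjusted p = 0.389).

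Il6st, which encodes gp130 (ENSMUSG00000021756.12, chromosome 13, positions 112464070 to 112510086, plus strand), was at 989.9 and 993.4 CPM in Fib-Ctrl line 1 but 437.6 and 380.9 CPM in its line 2. In Fib-dZeb1 it was at 369.4, 338.4, 389.3 and 390.2 CPM. Fib-Ctrl line 1 stood alone at over 2 times the level of every other library, and Fib-Ctrl line 2 bordered on the Fib-dZeb1 range. The line difference of 2.42-fold in Fib-Ctrl (log2FC -1.28 with SE 0.12 and adjusted p = 0.00119 by edgeR) had the smallest adjusted p of the 10 genes in that comparison. The genotype difference of -0.91 (SE 0.32, 95% interval -1.64 to -0.19) missed the threshold (adjusted p = 0.0821). It was called without Fib-Ctrl line 2 replicate 2 (adjusted p = 0.0358), without the whole of Fib-Ctrl line 2 (0.00131) and by DESeq2 (0.0229), and fell to -0.14 without Fib-Ctrl line 1. Its short coding forms took 0.222% to 0.954% of TPM (exact permutation p = 0.314 between genotypes).

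**Figure D3:**
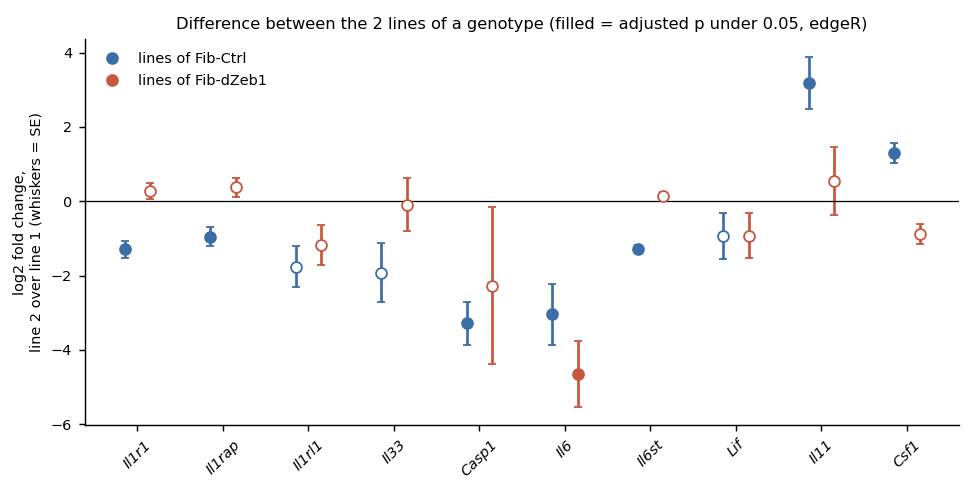
Log2 fold change of line 2 over line 1 for the 10 genes, with SE, in Fib-Ctrl (blue) and Fib-dZeb1 (red), filled where the adjusted p was under 0.05. In Fib-Ctrl 7 genes are filled, 5 below 0 and 2 above, and in Fib-dZeb1 only Il6 is.

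Csf1, the growth factor of macrophages (ENSMUSG00000014599.10, chromosome 3, positions 107741048 to 107760469, minus strand), was at 539.6 and 767.7 CPM in Fib-Ctrl line 1 but 1841 and 1408 CPM in its line 2. The Fib-dZeb1 values were 1006 and 1488 CPM for line 1 but 592.1 and 757.3 CPM for line 2. Line 2 was the higher in Fib-Ctrl and line 1 in Fib-dZeb1. The line difference was 2.48-fold in Fib-Ctrl (log2FC 1.31 with SE 0.27 and adjusted p = 0.0178 by edgeR) and -0.89 in Fib-dZeb1 (SE 0.26, adjusted p = 0.0887), and the latter was called once the replicate number was a term. The genotype difference was -0.25 (SE 0.41, 95% interval -1.19 to 0.70, adjusted p = 0.72). The 1656-base coding forms Csf1-201 and Csf1-203, which encode the full-length precursor, took most of the TPM, and the shorter Csf1-202 took 5.92% to 13.4%.

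Taking the 10 genes by the spread of their log2 CPM, lines of one genotype accounted for 28.6% to 87.1% of the sum of squares of a gene. That share was largest for Il6 (87.1%), Il1r1 (84.2%) and Csf1 (83.8%), against a median of 36.3% over all genes tested. Genotype accounted for 69% in Casp1, 50.8% in Il1rap, 48.5% in Il11 and 41.8% in Il6st, and for at most 1.9% in the remaining 6, against a median of 29%. Replicates of a line accounted for 1% in Il6st and up to 56% in Lif, against a median of 18.8%. In the Fib-Ctrl lines, the 7 genes that differed were Il1r1, Il1rap, Casp1, Il6 and Il6st (higher in line 1) and Il11 and Csf1 (higher in line 2). In the Fib-dZeb1 lines, 1 of 10 differed (Il6), against 6.72% of 13812 genes, and 2 (Il6 and Csf1) with the replicate number as a block. The count for Fib-Ctrl rested on single libraries. It was 4 without replicate 1 of Fib-Ctrl line 1 (Il1r1, Il1rl1, Il6 and Il6st), 3 without its replicate 2 (Il1r1, Il6st and Csf1), 4 without replicate 1 of line 2 (Il1r1, Il1rap, Casp1 and Il6st) and 4 without its replicate 2 (Casp1, Il6st, Il11 and Csf1). Il6st alone was called in all 4 of these settings. The count for Fib-dZeb1 was 0 without replicate 1 or replicate 2 of its line 2.

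Some listed partners of these genes in IL6 family signalling were called between genotypes, where 16.2% of all genes tested were called. Among the ligands, Ctf1, cardiotrophin 1, was at 4.03, 3.76, 2.33 and 1.96 CPM in Fib-Ctrl, compared with 10.9, 8.83, 7.93 and 8.26 CPM in Fib-dZeb1, where all 4 libraries were higher (log2FC 1.57 with SE 0.28 and adjusted p = 0.00892).

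Of 8 listed receptors of the family, 7 were tested, 1 was lower (Osmr) and 6 did not pass, with a median of -0.53. Osmr, which pairs with gp130 to bind oncostatin M, was at 178, 299.2, 118 and 111.9 CPM in Fib-Ctrl, compared with 64.5, 64.6, 60.2 and 41.8 CPM in Fib-dZeb1 (log2FC -1.61 with SE 0.32 and adjusted p = 0.0136 by edgeR). The ranges did not overlap, as for 24.3% of all genes tested. The ligand-binding chains Il6ra (12 ± 3.99 and 8.33 ± 1.77 CPM, adjusted p = 0.209), Lifr (37.8 ± 32.1 and 27 ± 2.98 CPM, adjusted p = 0.621) and Il11ra1 (32.5 ± 7.26 and 30.3 ± 7.76 CPM, adjusted p = 0.796) did not pass (SD, n = 4). Lifr had the line pattern of Il6st, with 61.2 and 69.6 CPM in Fib-Ctrl line 1 and 11.5 and 8.83 CPM in line 2.

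Of 12 genes of JAK-STAT3 signalling and feedback, all tested, 1 was higher (Ptpn2), 2 were lower (Socs2 and Stat3) and 9 did not pass, with a median of -0.25. Ptpn2, a phosphatase that acts on JAK kinases and STATs, was at 22.8, 22.9, 18.8 and 19.7 CPM in Fib-Ctrl, compared with 40.5, 42.7, 40.1 and 38.5 CPM in Fib-dZeb1, nearly without spread (log2FC 0.94 with SE 0.10 and adjusted p = 0.00169 by edgeR). Socs2, a feedback inhibitor of cytokine receptors, was at 32.3, 32.3, 18.9 and 16.5 CPM in Fib-Ctrl, compared with 6.97, 10.8, 9.8 and 11.9 CPM in Fib-dZeb1 (log2FC -1.34 with SE 0.27 and adjusted p = 0.0144). Stat3 went from 265.6 ± 67.5 to 159 ± 28.2 CPM (SD, n = 4; log2FC -0.74 with SE 0.20 and adjusted p = 0.0397), and lost its call in 6 of 8 leave-outs (up to 0.107), all but those of replicate 2 of Fib-Ctrl line 2 and of replicate 1 of Fib-dZeb1 line 1. Socs3, the feedback inhibitor bound to gp130, was at 29.4 ± 21.1 and 16.7 ± 4.35 CPM (adjusted p = 0.224). Ctf1, Osmr, Ptpn2 and Socs2 kept their calls with each of the 8 libraries left out, and all 4 lost them with the 4 lines as units (adjusted p 0.255 for Ctf1, 0.231 for Osmr, 0.193 for Ptpn2 and 0.256 for Socs2). The deleted gene Zeb1 also lost its call in that setting (adjusted p = 0.0622), which called 9 genes higher and 7 lower over all genes. With the correlation within lines, Ctf1 (0.0499) and Ptpn2 (0.0199) kept their calls and Osmr (0.0791) and Socs2 (0.0888) lost them. Osmr and Socs2 also lost them without Fib-dZeb1 line 1 (0.0551 and 0.0671) or line 2 (0.102 and 0.0692), and Socs2 without Fib-Ctrl line 1 (0.0532).

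**Figure D4:**
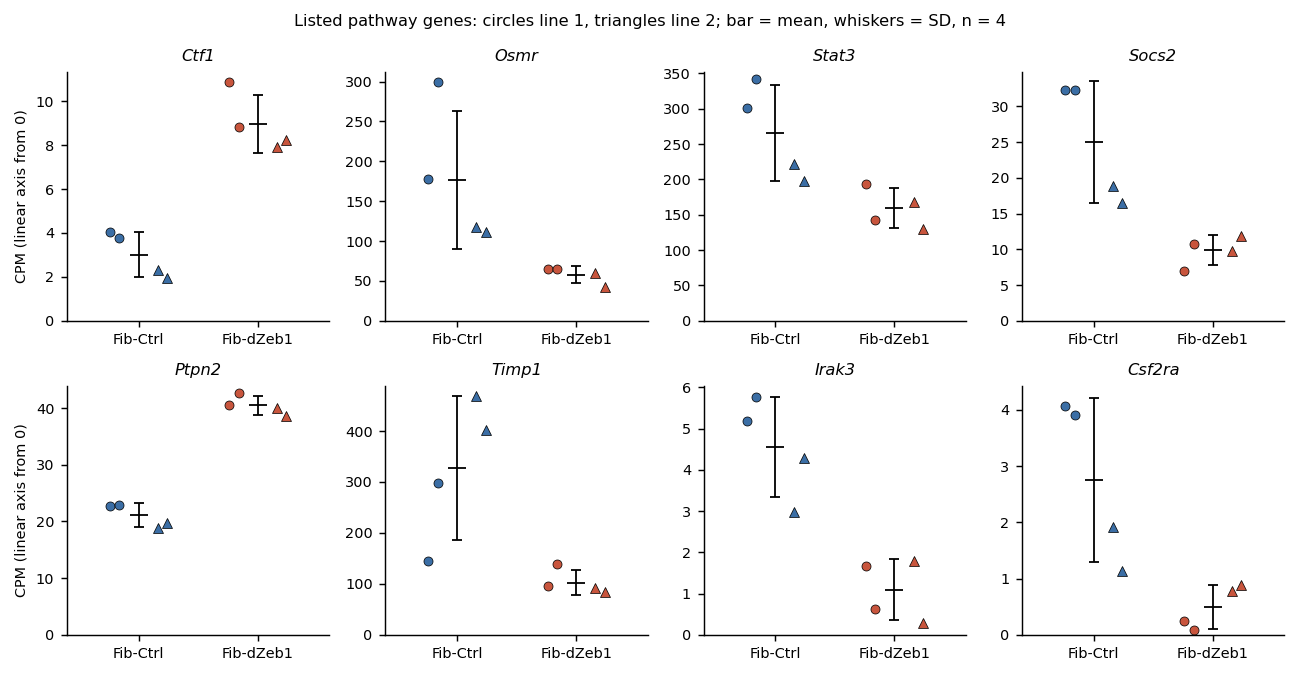
CPM of 8 listed pathway genes past the threshold, Fib-Ctrl in blue and Fib-dZeb1 in red, circles for line 1 and triangles for line 2, with the mean and SD of 4 libraries. Ctf1 and Ptpn2 are higher in all 4 Fib-dZeb1 libraries than in any Fib-Ctrl library, and the other 6 genes are lower. The 8 genes were shown for passing the test on the same values, so their separation adds no support. Ranges did not overlap for 24.3% of all genes tested.

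Of 14 STAT3 response genes, 11 were tested, 4 were lower (Timp1, Cebpb, Il4ra and Stat3 itself, against 8.65% lower over all genes) and none was higher, with a median of -0.74. With the correlation within lines in limma-voom, none of these 4 was called (adjusted p = 0.107 for Timp1, 0.135 for Cebpb, 0.163 for Il4ra and 0.171 for Stat3). Timp1, an inhibitor of matrix metalloproteinases, was at 144.1, 298.4, 468 and 401.5 CPM in Fib-Ctrl, compared with 95.1, 139, 92.5 and 83.4 CPM in Fib-dZeb1 (log2FC -1.68 with SE 0.34 and adjusted p = 0.0147 by edgeR), and missed the threshold without Fib-dZeb1 line 2 replicate 2 (0.0507). Cebpb, a transcription factor of the acute phase, went from 109 ± 42.7 to 52.7 ± 7.12 CPM (SD, n = 4; log2FC -1.05 with SE 0.25 and adjusted p = 0.025) and lost its call without replicate 1 (0.0624) or replicate 2 (0.0747) of Fib-dZeb1 line 2. Il4ra, the IL4 receptor chain, went from 76.6 ± 25.8 to 28.3 ± 10.6 CPM (log2FC -1.43 with SE 0.35 and adjusted p = 0.0278) and lost its call without any of 5 libraries, 3 of them Fib-Ctrl and replicate 2 of both Fib-dZeb1 lines (up to 0.0727). The secreted acute phase products Lcn2 and Saa3 did not reach the filter.

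Of 8 listed colony-stimulating factors, related growth factors and receptors, 4 were tested, 1 was lower (Csf2ra, against 8.65% lower over all genes) and 3 did not pass, with a median of -1.39. Csf2ra, the ligand-binding chain for GM-CSF, was at 4.08, 3.91, 1.92 and 1.14 CPM in Fib-Ctrl, compared with 0.239, 0.0837, 0.775 and 0.881 CPM in Fib-dZeb1 (log2FC -2.46 with SE 0.70 and adjusted p = 0.0467 by edgeR). Like Casp1, it passed the expression filter through Fib-Ctrl. It was no longer called under the replicate block (0.0663), with the correlation within lines (0.157), and without any 1 library except Fib-Ctrl line 2 replicate 2 (up to 0.103), and its signalling partner Csf2rb had no reads. The Csf1 receptor gene Csf1r was at 3.1 ± 0.72 and 1.62 ± 0.416 CPM (adjusted p = 0.064). Il34, the second ligand of that receptor, was at 1.64 ± 0.969 and 0.448 ± 0.244 CPM (adjusted p = 0.0707).

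**Figure D5:**
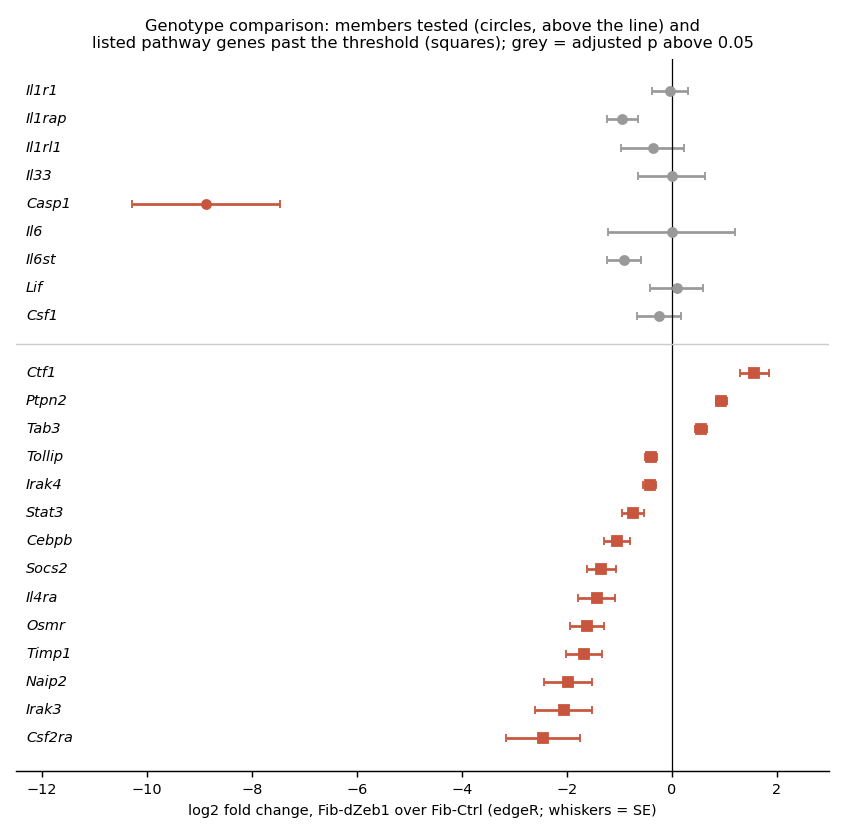
Log2 fold change of Fib-dZeb1 over Fib-Ctrl with SE for the 9 genes tested of the 10 (circles) and for listed pathway genes past the threshold (squares), in red where the adjusted p was under 0.05. Casp1 at -8.87 is the only circle in red, and of the squares Ctf1, Ptpn2 and Tab3 lie above 0.

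Within 100 kb of the 10 genes lie 37 other protein-coding genes, of which 22 were tested, 1 was higher and 4 were lower, a share near the 16.2% called over all genes. Tmem238, near Il11, was higher (log2FC 0.92 with SE 0.27 and adjusted p = 0.0483 by edgeR). Lower were Hadha near Il6 (-0.42, adjusted p = 0.0196), Ankrd55 near Il6st (-2.43, adjusted p = 0.0435), Castor1 near Lif (-0.83, adjusted p = 0.0157) and Rpl28 near Il11 (-0.50, adjusted p = 0.0163), the last a ribosomal protein gene whose pseudogenes can share its reads.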

How the data were processed

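Polyadenylated RNA of the fibroblast lines was sequenced in 8 libraries. The authors ran an nf-core pipeline (release 3.11.0) in which STAR aligned reads to GRCm38 and Salmon estimated transcript levels. No source read here names versions of STAR or Salmon, the annotation or the strand setting, so genes that overlap on opposite strands are uncertain. The deposited tables give for 109617 transcripts the estimated counts, not normalized. The deposited TPM are read densities per transcript length, scaled to a fixed sum per library.

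Here, 108214 transcripts (98.72%) were matched to GENCODE M21 and estimated counts were summed to 45321 genes and rounded. Unmatched transcripts held 0.262% to 0.303% of a library. Genotypes were compared with the quasi-likelihood test of edgeR 4.0.16 (R 4.3.3), genotype as sole term, filterByExpr, TMM scaling and Benjamini-Hochberg adjustment over 12963 genes at 0.05. Lines were compared in a fit with 1 mean per line over 13812 genes. SE are the coefficient over the root of F, and 95% intervals use the same fit. Both fits were tested on simulated counts, drawn independently for each library and with less spread than these data. That test does not show how the fits perform here. Shares of short coding forms (coding sequence under 70% of the longest, a limit chosen after the transcripts were seen) were compared by exact permutation for genes with at least 10 reads in every library. Promoter windows came from RefSeq (GRCm38.p6) and matched all 10 genes. No protein sequence was used here.

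The 10 genes, the pathway lists and the marker lists were chosen with earlier results of these data known. Named were all 10 genes, every listed gene past the threshold (at most 6 a list, else the 2 most abundant tested), the 2 genes most like a called member by Pearson r of log2(CPM + 0.5), and neighbours within 100 kb past the threshold. Partners of a member could be given by value, and which ones was chosen after their values were seen. A result of the IL6 family ligand list, and with it the counts of that list, is not reported here. The IL36 genes were matched through RefSeq synonyms. The labels do not say how replicates of a line were separated, so p-values measure the spread of these libraries, with only 2 lines per genotype. Replicates of a line differed by far more than sampling noise (chi-square per degree of freedom 19.4 to 75.3). Changes from replicate 1 to replicate 2 correlated at 0.17 to 0.38 between lines, so the replicate number was tried as a block. For libraries sharing line and replicate numbers across genotypes, the deviations of log2 CPM from the genotype mean correlated at -0.05 to 0.23. Such libraries were not taken as pairs. Alternatives were other scalings (DESeq2 size factors, library size), filters, tests (DESeq2 1.42.0, limma 3.58.1 on TPM with a pseudocount of 0.1, limma-voom), lines as units, and libraries or lines left out.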

Additional observations from a re-analysis of the deposited data

Results flagged for a closer look

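A library stood apart from the other 3 of its genotype, by the gap to its nearest neighbour over the range of the group, in 2 of 20 groups of member CPM and in none of 6 groups of shares of short forms. Chance marks about 1 group in 20. Il1rl1 was at 163.6 CPM in Fib-Ctrl line 1 replicate 2, against 29.7 to 47.8 CPM in the other Fib-Ctrl libraries, a gap of 0.865 of the range. Casp1 was at 0.0419 CPM in Fib-dZeb1 line 1 replicate 2, which is 1 read, while the other Fib-dZeb1 libraries had none. With the others all at 0, any read in that library would have been flagged.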

How the results depend on the processing

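Of the members, 1 was called lower and none higher in Fib-dZeb1 (unadjusted p under 0.05 for 3 of 9). The count lower was 4 by DESeq2 (Il1rap, Casp1, Il6st and Il11), 2 with no filter (Casp1 and Il11), 0 with at least 1 CPM in 4 libraries (Casp1 not tested), 0 with lines as units, 0 by limma-voom with a correlation of 0.543 within lines, 2 without Fib-Ctrl line 1 (with 1 higher, Il1r1), 3 without Fib-Ctrl line 2, and 0 without either Fib-dZeb1 line. With 1 library left out it was 1 to 3, and the count higher stayed 0. With the replicate number as a replicate block it was 1 (Casp1), as it was with line and replicate number as the block. Over all genes the block gave 920 higher and 1046 lower, against 978 and 1121 without it, and among the listed genes named it ended the calls of Csf2ra (adjusted p = 0.0663) and Irak4 (0.0524).

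Calls over all genes, higher and lower, were 2272 and 719 by library size alone, which moved the median of all genes from -0.005 to 0.173 (log2), 1984 and 725 with TPM, 1572 and 1758 by DESeq2, 9 and 7 with lines as units, 114 and 146 with the correlation within lines, and 384 and 433 without Fib-dZeb1 line 2. With 1 library left out they were 476 to 1011 and 508 to 1141. The higher calls were 46.6% of all calls, against 76% by library size alone and 73.2% with TPM. By library size alone, Irak4, Tollip and Stat3 lost their calls and kept their direction. The cause was not tested.

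Some uncalled members changed direction. Without Fib-Ctrl line 1 the log2 fold change was 0.75 for Il1r1, 0.76 for Il1rl1, 1.25 for Il33 and 2.20 for Il6, which was at -3.69 without Fib-dZeb1 line 1. It was 0.55 for Csf1 without Fib-Ctrl line 2 and -0.44 for Lif without Fib-dZeb1 line 1. With 1 library left out, values ran from -0.26 to 0.35 for Il1r1, from -0.73 to 0.53 for Il1rl1 and from -0.996 to 1.18 for Il6. The cause was not tested.

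Members differing between the Fib-Ctrl lines (7) numbered 10 with no filter, 8 by DESeq2, 7 with the replicate block, and 3 to 8 with 1 library left out, the lone library of a line being taken to vary like the rest. For the Fib-dZeb1 lines (1) the count was 3 with no filter, 2 with the replicate block, 2 by DESeq2, and 0 to 1 with 1 library left out. The share of all genes called between lines is given only for the main fit (16.7% in Fib-Ctrl and 6.72% in Fib-dZeb1). The counts of the other settings therefore cannot be read as a trait of the members. Shares of short forms passed no test in any setting. Depth limits Il33, Il6, Lif and Il11, at 1 to 212 reads per library.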
